A study of Mus musculus with 25 samples.

Results

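Resident Kupffer cell markers were followed across 5 groups of mouse liver and liver tumor tissue. They are 10 genes of the 48795 in the deposited gene tables: Clec4f, Timd4, Vsig4, Cd5l, Marco, Folr2, Cd163, Clec1b, Adgre1 and Csf1r. The genes were chosen by symbol, as known markers, and from their levels in these same libraries. Their values and fold changes are therefore given as a description, with no p-value printed for any of them. Where a marker is said to pass or miss a threshold on p, this too is a description. All 10 passed the filter on low counts that kept 15625 genes.

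All 25 RNA-seq libraries came from male mice of the inbred strain C57BL/6J. Livers came from mice that received no carcinogen and ate either a control diet (nonDEN L-CD, n = 3) or a western diet (nonDEN L-WD, n = 4), or from mice given the hepatocarcinogen diethylnitrosamine (DEN) and the control diet (DEN L-CD, n = 4). DEN-injected mice on the western diet gave peritumoral liver (DEN PT-WD, n = 8) and dissected tumors (DEN T-WD, n = 6). DEN was injected intraperitoneally at 25 mg/kg at 2 weeks of age, diets began at weaning, and tissue was taken at 36 weeks, or as late as 39 weeks for DEN-injected mice according to a supplementary legend. No tumor was dissected from DEN-injected mice on the control diet, because theirs were too small to separate, so DEN L-CD tissue can hold small lesions and diet cannot be compared between tumors. RNA was made from pulverised whole tissue, in which fewer cells of a type and less RNA per cell cannot be told apart.

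Kupffer cells are the macrophages that live inside the liver sinusoids, where they clear particles, dying cells, old red blood cells and gut-derived microbes from the blood. Most descend from embryonic precursors and renew themselves locally, and their identity is maintained by signals from stellate cells, sinusoidal endothelium and hepatocytes. When they are lost, monocytes can enter the niche and slowly take on the same genes, Timd4 among the last. The 10 markers are surface or secreted proteins: receptors that recognise sugars, phosphatidylserine, complement or modified lipoproteins, a folate receptor, a growth factor receptor and a secreted scavenger protein.

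Promoters are printed for 3 markers with lower values in tumors than in peritumoral liver, chosen because they held a match to a motif that was searched. RefSeq promoters of GRCm38.p6 were searched on both strands, over 250 bases before each start, for AGGAAGT (bound by PU.1 and other ETS factors), GTGGGAA (RBPJ), TGCTGAC (MAF factors) and AGGTCA (nuclear receptors). Capitals mark matches to AGGAAGT or TGCTGAC. Timd4 is shown at chr11:46810549-46810798 (plus strand), Clec4f at chr6:83656188-83656366 (minus strand) and the upstream start of Folr2 at chr7:101857195-101857440 (minus strand), each written 5′ to 3′ along its gene.
Timd4: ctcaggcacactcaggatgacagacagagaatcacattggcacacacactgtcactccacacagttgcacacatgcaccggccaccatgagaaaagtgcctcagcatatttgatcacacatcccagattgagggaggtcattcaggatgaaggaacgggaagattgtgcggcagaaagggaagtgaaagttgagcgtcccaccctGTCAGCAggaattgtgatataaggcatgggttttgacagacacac
Clec4f: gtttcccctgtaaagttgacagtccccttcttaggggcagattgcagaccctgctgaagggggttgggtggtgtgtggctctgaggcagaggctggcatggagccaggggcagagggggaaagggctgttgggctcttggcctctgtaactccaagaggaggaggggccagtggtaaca
Folr2: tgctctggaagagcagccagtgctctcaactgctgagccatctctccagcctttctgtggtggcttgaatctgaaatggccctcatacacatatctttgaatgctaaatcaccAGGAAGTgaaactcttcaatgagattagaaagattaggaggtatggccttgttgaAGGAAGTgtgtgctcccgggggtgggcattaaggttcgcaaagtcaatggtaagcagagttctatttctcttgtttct

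The Timd4 window held TGCTGAC on its minus strand at position -45 from the start and AGGTCA at position -116. The upstream Folr2 window held AGGAAGT at positions -137 and -82. In Clec4f the only match was AGGTCA at position -22, which lies outside the stretch printed. The windows of Vsig4, Cd5l, Marco, Cd163 and Clec1b and of the downstream Folr2 start held none of these letters, and Marco and Cd163 were among the markers furthest below peritumoral liver. Of 32851 promoters, 7.69% held AGGAAGT, 5.42% GTGGGAA, 3.81% TGCTGAC and 14.0% AGGTCA in windows of the same length, so that such matches are common and are given as a description only.

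Levels are given as TPM (the gene's length-corrected share of the transcripts in a library, scaled to a fixed total), and differences as log2 fold changes from counts scaled by TMM (an edgeR library scaling). Libraries held between 21530083 and 38074411 expected counts, and every marker had counts in every library, the lowest being 23 for Cd163 in a tumor. TPM ran higher in peritumoral liver and tumors than counts scaled by TMM: with a pseudocount of 0.1, the median log2 difference in TPM over all genes tested was 0.30 when DEN PT-WD was set against DEN L-CD and 0.35 when DEN T-WD was set against nonDEN L-WD, while the median TMM-scaled log2 fold change was 0.02 in both. TPM ranges therefore describe levels, and the fold changes describe differences. Summed TPM of 8 exocrine pancreas genes ranged from 0.25 to 5120 over the libraries and exceeded 500 in 8 of them, in every group. DEN L-CD replicate 2 stood apart from its group, with summed marker TPM of 335 against 181 to 199 in the other 3 libraries, pan-macrophage TPM of 476 against 310 to 343, and red blood cell TPM of 2920 against 1240 to 1360. DEN T-WD replicate 5 stood apart from the other tumors, with hepatocyte TPM (8 genes) of 30000 against 106000 to 126000 and pan-macrophage TPM of 1290 against 522 to 950. It held the lowest Timd4 and Cd163 and the highest Adgre1 and Csf1r of the tumors.

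Over all libraries, Cd5l was the most abundant marker (mean TPM 95.9), followed by Clec4f (61.4), Vsig4 (33.2), Csf1r (22.0), Clec1b (19.0), Adgre1 (15.2), Folr2 (13.7), Marco (8.71), Cd163 (5.10) and Timd4 (3.77). From the lowest to the highest library, Vsig4 varied 3.58-fold, whereas Marco varied 17.5-fold and Cd163 32.1-fold in TPM. The plot of TPM by library shows all 10 genes.

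**Figure D1:**
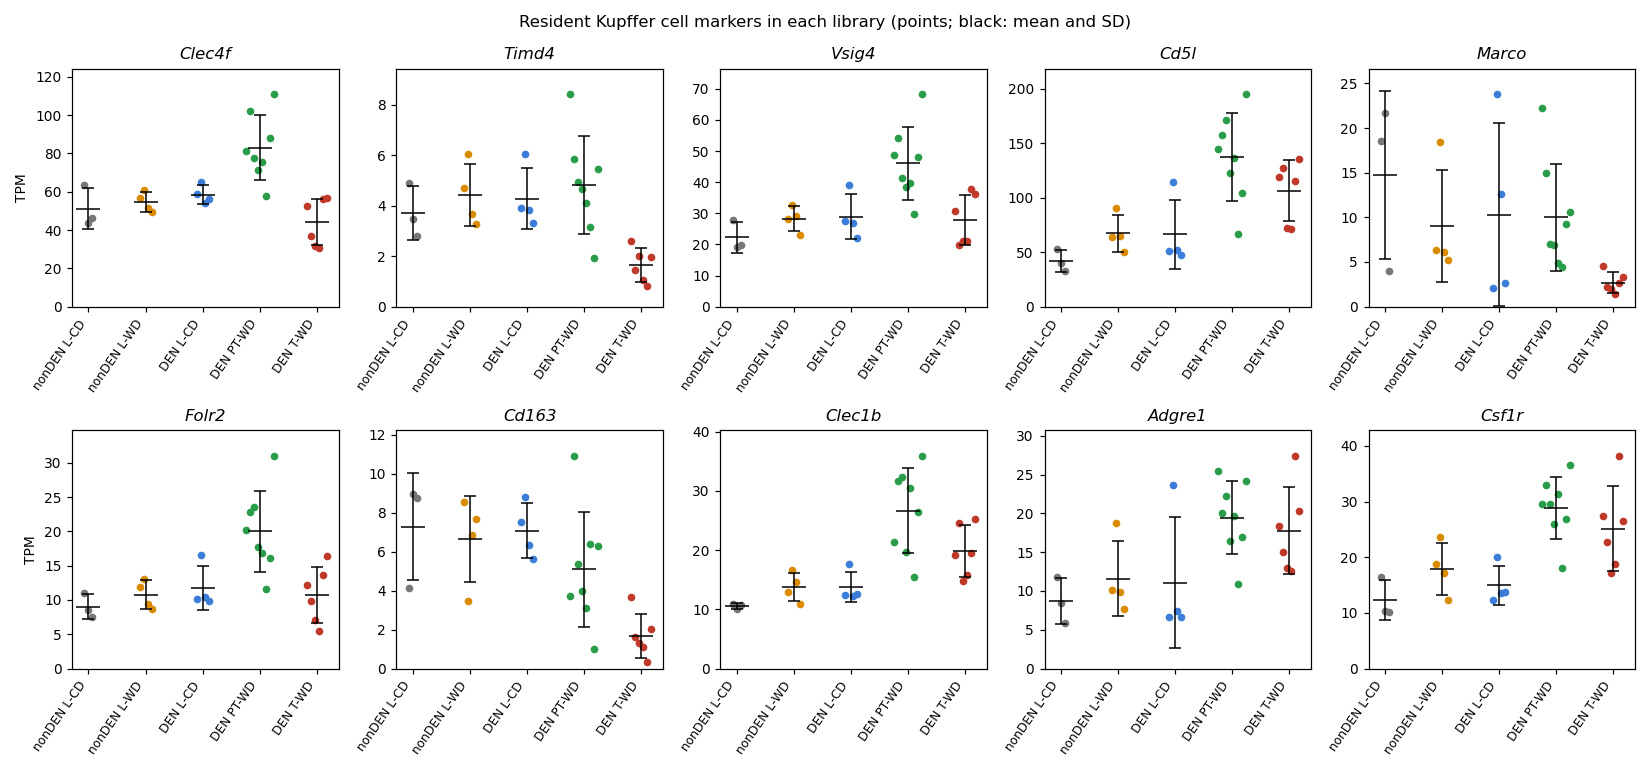
TPM of each of the 10 markers (y axis, from 0, own scale per panel) in every library of the 5 groups (points), with group mean and SD in black. Clec4f in the 6 tumors (30.8 to 56.5) lies below all 8 peritumoral livers (57.9 to 111), while Adgre1 in tumors (12.6 to 27.4) overlaps them (10.9 to 25.4).

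In tumors relative to peritumoral liver, estimates for all 10 resident markers were below 0, and those of Cd5l, Adgre1 and Csf1r did not reach an adjusted p of at most 0.05. In DEN T-WD against DEN PT-WD, 5 of the 10 markers were called (adjusted p of at most 0.05, and a log2 fold change of 1 or more in size), all lower: Marco, Cd163, Timd4, Clec4f and Folr2. Across all genes tested 3.09% were called lower and 7.90% were called in either direction. Vsig4 and Clec1b were also below at an adjusted p of at most 0.05 with no minimum fold, which makes 7 of 10, where 18.1% of all genes were. Because the markers were picked with such values in view, nothing is read from these counts. The median log2 fold change of the 10 markers was -0.96, and that of all genes tested 0.01.

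Clec4f encodes a C-type lectin that binds galactose-type sugars and, in rodents, is made almost exclusively by Kupffer cells. Its TPM was 63.3, 43.6 and 46.2 in nonDEN L-CD livers, 56.5, 61.0, 51.5 and 49.2 in nonDEN L-WD livers, and 58.6, 65.2, 54.1 and 56.2 in DEN L-CD livers. In DEN PT-WD it ran from 57.9 over a median of 79.3 to 111, and in DEN T-WD from 30.8 over 45.0 to 56.5. No tumor reached the lowest peritumoral liver, which among all genes tested held for 2.05%, and Clec4f was the only marker with this separation in TPM. In TMM-scaled CPM (counts scaled to a fixed library total) Clec4f and Marco were both separated in this way, as were 5.18% of all genes. By group mean, DEN PT-WD was highest (83.1 ± 17.0 TPM, SD, n = 8) and DEN T-WD lowest (44.2 ± 12.2 TPM, SD, n = 6), while the 3 remaining groups overlapped each other. The log2 fold change in tumors was -1.04 ± 0.15 (SE) against peritumoral liver and -0.63 ± 0.17 against nonDEN L-WD.

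Timd4 encodes TIM-4, a receptor for phosphatidylserine on dying cells that marks long-lived resident macrophages. TPM values were 4.89, 3.46 and 2.78 in nonDEN L-CD livers, 4.71, 6.04, 3.67 and 3.26 in nonDEN L-WD livers, and 3.91, 6.05, 3.83 and 3.33 in DEN L-CD livers. Peritumoral livers spanned 1.94 to 8.42 TPM with a median of 4.79, and tumors 0.83 to 2.61 TPM with a median of 1.70. The 6 tumors lay below every nonDEN L-WD liver, whereas 3 of them lay within the peritumoral range. In TPM this order held for Timd4, Marco and 3.54% of all genes. In TMM-scaled CPM it held for Timd4, Marco, Clec4f and Cd163 and for 15.5% of all genes. The log2 fold change of Timd4 was -1.68 ± 0.28 (SE) against peritumoral liver and -1.76 ± 0.32 against nonDEN L-WD.

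Marco, a class A scavenger receptor that takes up particles and bacteria, varied widely within groups of liver. Its TPM was 18.5, 21.7 and 3.99 in nonDEN L-CD livers, 6.35, 18.4, 6.09 and 5.17 in nonDEN L-WD livers, and 2.12, 23.8, 12.6 and 2.70 in DEN L-CD livers. Peritumoral livers ran from 4.45 to 22.2 TPM around a median of 8.13, and tumors from 1.36 to 4.60 around 2.39. The 4 liver groups overlapped throughout, and 5 of 6 tumors were below all peritumoral livers. Marco had a log2 fold change of -2.04 ± 0.53 (SE) in tumors against peritumoral liver and -2.06 ± 0.59 against nonDEN L-WD, with the widest errors of the 10 genes in both.

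Cd163 encodes the receptor that takes up hemoglobin bound to haptoglobin. In TPM it measured 4.13, 8.96 and 8.75 in nonDEN L-CD livers, 8.52, 3.47, 6.85 and 7.69 in nonDEN L-WD livers, and 7.51, 8.82, 6.31 and 5.60 in DEN L-CD livers. Peritumoral livers ranged from 1.00 to 10.9 TPM (median 4.67) and tumors from 0.34 to 3.69 (median 1.47), so the 2 tissues overlapped, and a single tumor was below all peritumoral livers. The log2 fold change in tumors was -1.75 ± 0.45 (SE) against peritumoral liver and -2.35 ± 0.51 against nonDEN L-WD. Cd163 was the marker furthest below nonDEN L-WD in tumors, and in peritumoral liver its estimate was also negative, at -0.60 ± 0.46.

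Folr2 encodes folate receptor beta, a surface protein of resident macrophages in several tissues. Its TPM was 11.0, 8.51 and 7.48 in nonDEN L-CD livers, 11.9, 13.1, 9.34 and 8.71 in nonDEN L-WD livers, and 10.1, 16.6, 10.5 and 9.84 in DEN L-CD livers. Peritumoral livers held 11.6 to 31.0 TPM (median 18.9) and tumors 5.51 to 16.4 (median 11.0). Tumors thus overlapped the livers of every other group, with 3 of 6 below all peritumoral livers, and the log2 fold change was -1.04 ± 0.22 (SE) against peritumoral liver and -0.36 ± 0.25 against nonDEN L-WD. Folr2 shares 52.6% of its 50-base words with Gm10602, a gene annotated antisense to it. That gene had 5 to 28 expected counts per library, but use of strand in counting is not given in the sources used here, so the Folr2 values are uncertain to that extent.

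The other 5 markers were not called in tumors. Vsig4, which encodes a complement receptor that captures C3b-coated particles, averaged 46.1 ± 11.7 TPM (SD, n = 8) in peritumoral liver and 27.8 ± 8.19 (n = 6) in tumors, with a log2 fold change of -0.89 ± 0.18 (SE). Clec1b, the CLEC-2 receptor for podoplanin that platelets also carry, averaged 26.7 ± 7.19 and 19.9 ± 4.35 TPM, and its log2 fold change was -0.60 ± 0.16. Cd5l, a secreted scavenger protein that circulates with IgM, averaged 137 ± 40.1 and 107 ± 27.9 TPM, at -0.51 ± 0.22. These 3 estimates were below 0, and each gene's tumor and peritumoral ranges overlapped in TPM.

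Adgre1 and Csf1r are broad macrophage genes rather than genes of Kupffer cells alone. Adgre1, which encodes the adhesion receptor F4/80, averaged 19.5 ± 4.70 TPM (SD, n = 8) in peritumoral liver and 17.8 ± 5.60 (n = 6) in tumors, a log2 fold change of -0.28 ± 0.26 (SE). Csf1r, the receptor for the growth factors CSF1 and IL-34, averaged 28.8 ± 5.52 and 25.2 ± 7.58 TPM, at -0.35 ± 0.16. Both genes had estimates nearer 0 than the 8 other markers. Csf1r shares 14.3% of its 50-base words with Hmgxb3 on the opposite strand, and Clec1b overlaps Clec9a and shares 3.23% of its words with other genes.

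**Figure D2:**
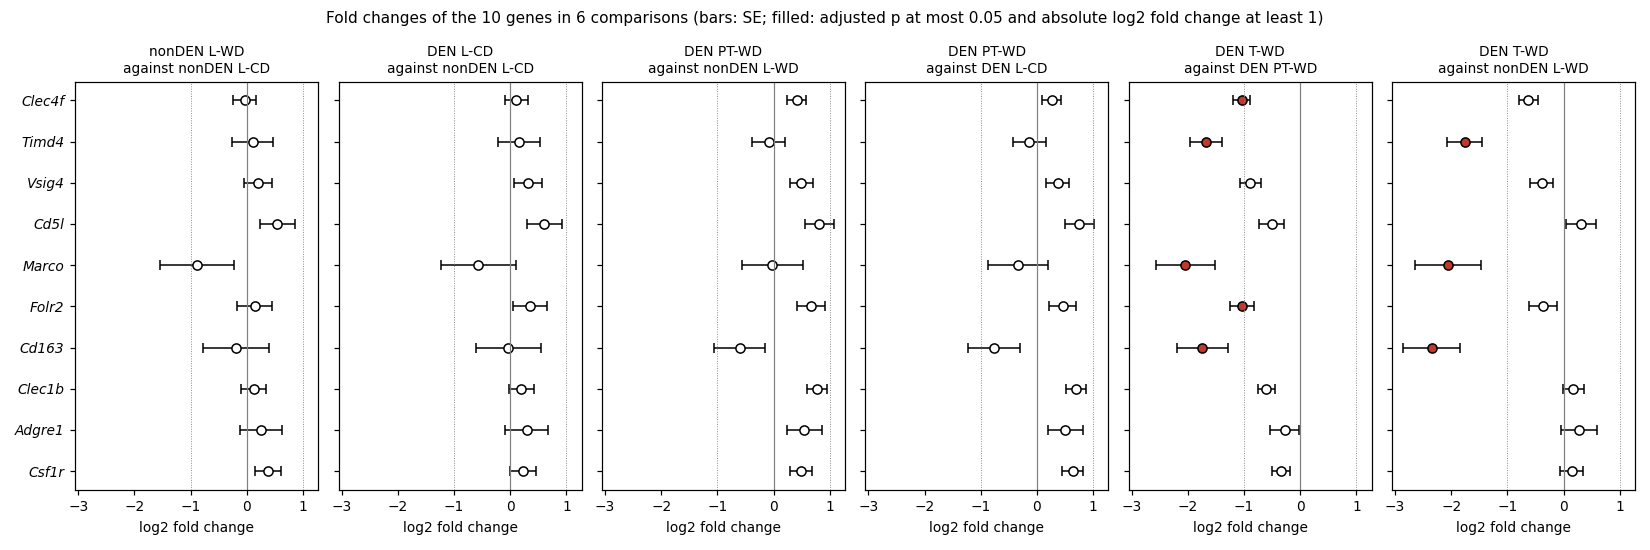
Log2 fold change (x axis) of each marker (y axis) in 6 comparisons, with SE as bars; filled points have an adjusted p of at most 0.05 and a log2 fold change of 1 or more in size. Filled points occur only in the tumor panels, for 5 genes against peritumoral liver and for 3 against nonDEN L-WD.

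Against nonDEN L-WD, which uses the same tumors, 3 of 10 markers were called, all lower: Timd4, Marco and Cd163. Clec4f was also below at an adjusted p of at most 0.05, which makes 4 of 10. Of all genes tested, 5.24% were called lower, 15.7% were called in either direction and 23.1% were lower with no minimum fold, and nothing is read from the marker counts. Estimates for the 10 markers ran from -2.35 to 0.31 with a median of -0.38, and Cd5l, Clec1b, Adgre1 and Csf1r lay above 0.

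Leaving out a single library changed which markers passed the minimum fold in tumors against peritumoral liver. Clec4f was not called without DEN PT-WD replicate 2 or 8 or DEN T-WD replicate 2, 3 or 4, and Folr2 was not called without DEN PT-WD replicate 3 or 8 or DEN T-WD replicate 3 or 4. Timd4, Marco and Cd163 were called in all 14 such fits. Without DEN T-WD replicate 5, the tumor low in hepatocyte transcripts, the same 5 markers were called, with Timd4 at -1.52 and Cd163 at -1.51. Of 15512 genes, 553 were called lower in that fit. Adgre1 then moved to -0.41 and Csf1r to -0.48, the latter at an adjusted p of at most 0.05. Without the 8 libraries rich in pancreas transcripts, 4 markers were called: Clec4f (-1.13), Timd4 (-1.55), Folr2 (-1.27) and Vsig4 (-1.01), while Marco (-1.76) and Cd163 (-1.44) were not. In that fit 407 of 15750 genes were called lower, against 483 of 15625 with all libraries.

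Diet and DEN were each compared with the same 3 control livers, in tissue from which no tumor was dissected, although DEN L-CD tissue can hold small lesions. When nonDEN L-WD was set against nonDEN L-CD, 0 of 10 markers were called by edgeR's quasi-likelihood test, 0 had an unadjusted p under 0.05 and 0 were called by DESeq2, where the shares of all genes were 5.29%, 35.8% and 5.48%. DEN L-CD against nonDEN L-CD gave the same counts of 0, 0 and 0, with 4.69%, 34.4% and 5.11% of all genes. The interaction of DEN with diet was the difference of DEN PT-WD from DEN L-CD, less that of nonDEN L-WD from nonDEN L-CD. As DEN PT-WD is liver beside dissected tumors, an interaction cannot be told apart from that site. The counts were again 0, 0 and 0, with 2.75%, 24.2% and 3.71% of all genes. Log2 fold changes of the markers ran from -0.88 (Marco) to 0.54 (Cd5l) on the western diet and from -0.57 (Marco) to 0.61 (Cd5l) after DEN. These errors were wide, with an SE of 0.66 for Marco and 0.32 for Cd5l, and counts of 0 do not show that the levels were alike. Without DEN L-CD replicate 2, the estimate for Adgre1 after DEN moved from 0.29 to -0.38. Without the pancreas-rich libraries, which leaves 2 nonDEN L-CD and 2 nonDEN L-WD livers, estimates on the western diet moved for 2 markers. Adgre1 went from 0.252 to 0.806 and Csf1r from 0.375 to 0.784, and after DEN Csf1r went from 0.228 to 0.573.

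In peritumoral liver 7 of 10 markers had estimates above 0, both against the liver group that shares its diet and against the one that shares its carcinogen, with medians of 0.49 and 0.41 on the log2 scale where all genes had 0.00 and 0.02. The 13 pan-macrophage genes had higher medians in the same comparisons, at 0.63 and 0.62, and 6 of them were higher at an adjusted p of at most 0.05 in each; their part in the marker values was not tested. Against nonDEN L-WD, 0 of 10 markers were called by edgeR and 0 by DESeq2, 6 were higher at an unadjusted p under 0.05, and 2 were higher at an adjusted p of at most 0.05 with no minimum fold (3 with DESeq2). Of all genes, 2.76% were called by edgeR and 3.34% by DESeq2, 16.7% were higher at an unadjusted p under 0.05, and 7.5% were higher with no minimum fold (9.34% with DESeq2). The 2 markers were Cd5l, at 0.82 ± 0.26 (SE) on the log2 scale, and Clec1b, at 0.78 ± 0.18. In TPM, 7 of 8 peritumoral livers exceeded all nonDEN L-WD livers for Clec1b, whose values were 13.0, 16.6, 14.6 and 10.9 there and 15.4 to 35.9 (median 28.5) in peritumoral liver. In TMM-scaled CPM all 8 did, as was the case for 3.81% of all genes.

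Against DEN L-CD, the same 8 peritumoral livers gave 0 called markers with edgeR and 0 with DESeq2, 3 higher at an unadjusted p under 0.05 and 2 higher at an adjusted p of at most 0.05 (3 with DESeq2). Of all genes, 1.9% were called by edgeR and 2.35% by DESeq2, 16.4% were higher at an unadjusted p under 0.05, and 6.8% were higher with no minimum fold (8.28% with DESeq2). The 2 markers were Clec1b (0.69 ± 0.18, SE) and Csf1r (0.63 ± 0.19). Csf1r TPM was 12.4, 20.0, 13.6 and 13.7 in DEN L-CD livers and 18.0 to 36.6 (median 29.6) in peritumoral livers, so the ranges met only at DEN L-CD replicate 2. Without that library, Cd5l (1.13) and Adgre1 (1.18) were called, against estimates of 0.75 and 0.51 with it. Of 15623 genes, 260 were called higher in that fit. Marco, Cd163 and Timd4 had estimates below 0 in both peritumoral comparisons, from -0.02 to -0.77, none of them with an adjusted p of at most 0.05.

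The markers can also be set against genes that liver macrophages in general make, although their level per macrophage was not measured. C1qa, C1qb and C1qc encode the chains of complement C1q, which liver macrophages make in bulk, and their log2 fold changes in tumors against peritumoral liver were -0.12, -0.07 and -0.18, none with an adjusted p of at most 0.05. Relative to their mean log2 CPM, the markers were lower in tumors by 0.88 for Clec4f, 1.45 for Timd4, 0.71 for Vsig4, 1.74 for Marco, 0.88 for Folr2 and 1.58 for Cd163. Adgre1 (-0.10), Csf1r (-0.18), Cd5l (-0.30) and Clec1b (-0.40) stood closer to C1q. On this scale every tumor lay below every peritumoral liver for Clec4f, Vsig4, Marco and Folr2, that is 4 of 10 markers, an order that 0.435% of all genes tested showed. Subtracting C1q adds the spread of C1q to genes that do not follow it. Without that step, 5.18% of all genes were separated in TMM-scaled CPM, so 0.435% is not a like background for macrophage genes. As the markers were also chosen with tumor values known, the count of 4 is a description.

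**Figure D3:**
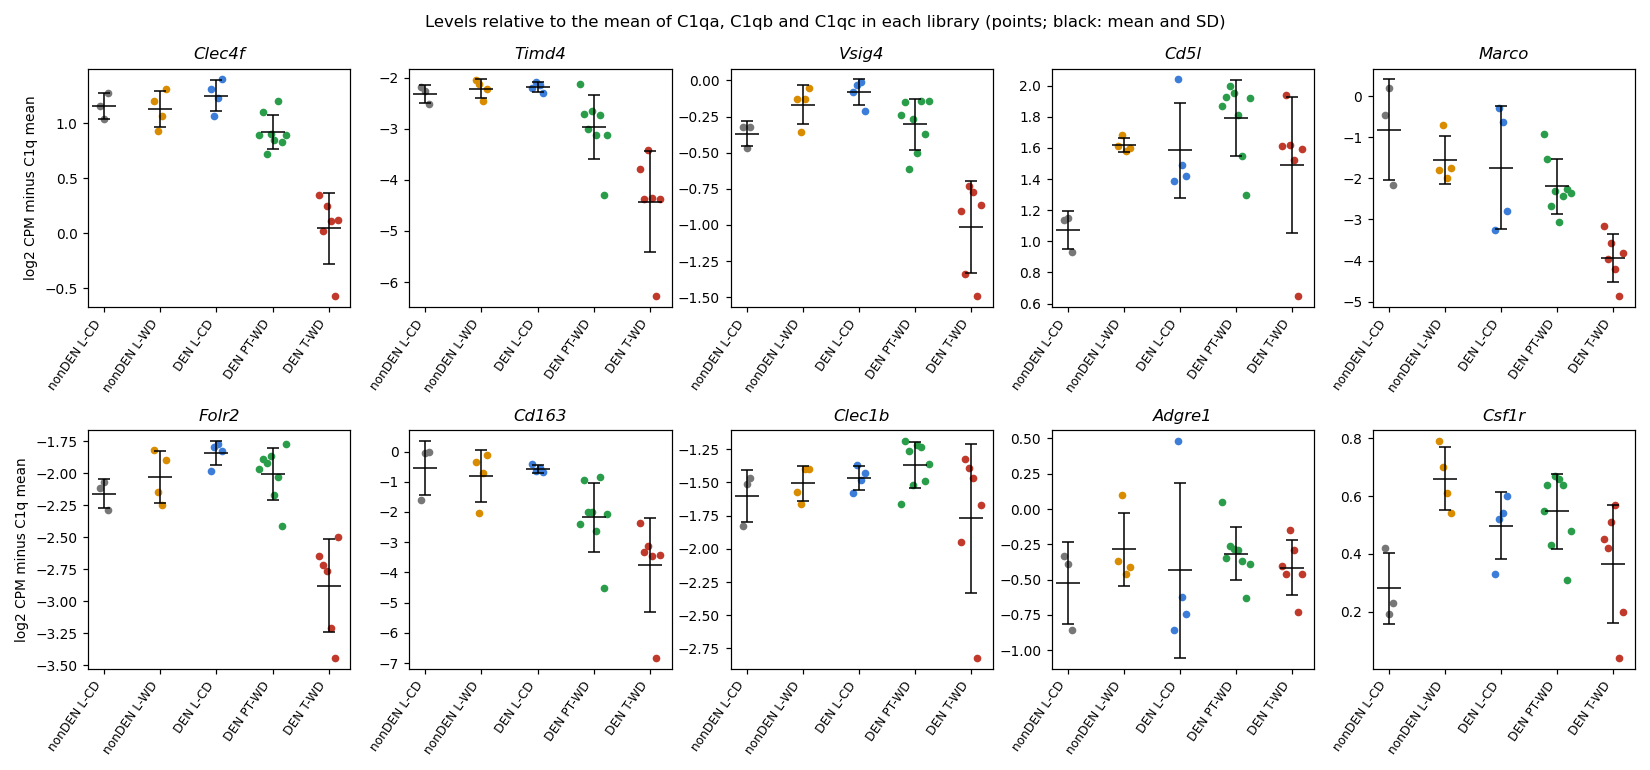
Log2 CPM of each marker minus the mean log2 CPM of C1qa, C1qb and C1qc (y axis, own scale per panel) in every library of the 5 groups, with group mean and SD in black. Clec4f is at 0.72 to 1.20 in peritumoral liver and -0.57 to 0.35 in tumors, while Adgre1 overlaps, at -0.63 to 0.05 and -0.73 to -0.15.

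Relative to C1q, Timd4, Cd163 and Marco averaged lower in peritumoral liver than in nonDEN L-WD livers. C1qa, C1qb and C1qc themselves had log2 fold changes of 0.63, 0.63 and 0.59 there (adjusted p = 0.0721 to 0.0751 by edgeR), so that a gene with a constant log2 CPM would also read lower on this scale. For Timd4, log2 CPM itself was 2.59 ± 0.63 (SD, n = 8) in peritumoral liver and 2.77 ± 0.26 (n = 4) in nonDEN L-WD livers. Relative to C1q, Timd4 averaged -2.97 ± 0.63 (SD, n = 8) there, against -2.21 ± 0.18 in nonDEN L-WD livers and -2.19 ± 0.10 in DEN L-CD livers, and reached -4.43 ± 0.98 (n = 6) in tumors. Cd163 averaged -2.18 ± 1.15 in peritumoral liver, -0.80 ± 0.85 in nonDEN L-WD livers, -0.57 ± 0.13 in DEN L-CD livers and -3.75 ± 1.55 in tumors. Marco averaged -2.19 ± 0.67 in peritumoral liver, -1.56 ± 0.59 in nonDEN L-WD livers, -1.74 ± 1.5 in DEN L-CD livers, whose range of -3.26 to -0.29 spans the peritumoral mean, and -3.93 ± 0.58 in tumors. Clec4f differed less between these livers, with 0.92 ± 0.15 in peritumoral liver and 1.13 ± 0.17 in nonDEN L-WD, before 0.05 ± 0.32 in tumors. All of these are log2 differences from C1q and, not being corrected for gene length, are read only within a gene.

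Other genes of the same cells were described from lists written by hand. Of 14 other Kupffer cell genes, 3 were called in tumors against peritumoral liver, 2 lower (3.09% of all genes) and 1 higher (4.81%), and the median log2 fold change was -0.36. C6, a terminal complement component, fell by 1.16 (adjusted p = 0.00028 by edgeR's quasi-likelihood test) and Fcna, a ficolin that recognises microbial sugars, fell by 1.09 (adjusted p = 5.2e-07). Id1, a target of BMP signaling that many cell types express, rose by 1.02 (adjusted p = 0.00287). Hpgd and Slc40a1 were also lower at an adjusted p of at most 0.05, at -0.91 and -0.49, and Cd207, Kcna2, Il18bp, Nr1h3, Spic and the 4 remaining genes were not.

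The 13 pan-macrophage genes reported here had a median log2 fold change of -0.07 in the same comparison. Maf, Mertk and Mrc1 were at -0.32 to -0.30 and Lgmn was at 0.37, each with an adjusted p of at most 0.05 (edgeR). Lyz2 and Cd68 had estimates of 0.00 and 0.05. In summed TPM, these genes ranged from 418 to 925 (median 757) in peritumoral liver and from 522 to 1290 (median 781) in tumors, compared with 224 to 524 (median 384) and 179 to 324 (median 276) for the 10 resident markers.

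Some genes listed as markers of recruited monocytes and of lipid-associated macrophages were higher in tumors, in whole tissue that does not show which cells held them. Of 15 such genes, 5 were higher than in peritumoral liver at an adjusted p of at most 0.05, and 2 of these were called, with a list median of 0.51, where 19.5% and 4.81% of all genes were: Spp1, which encodes the secreted protein osteopontin, rose by 1.97 (adjusted p = 8.86e-06, edgeR) and Fabp5, a fatty acid binding protein, rose by 1.39 (adjusted p = 0.00772). Trem2 (0.07), Gpnmb (0.13), Plac8 (0.15), Mmp12 (0.26) and S100a4 (0.28) were among the 10 genes that did not pass. Summed TPM of the list was 194 to 628 (median 365) in peritumoral liver and 802 to 1310 (median 1170) in tumors, and 121 to 154 in nonDEN L-WD. Spp1 made up much of these sums, with a mean of 149 ± 79.4 TPM (SD, n = 8) in peritumoral liver and 645 ± 196 (n = 6) in tumors. Against nonDEN L-WD, 14 of the 15 were called higher in tumors (median 1.81; 10.4% of all genes). In peritumoral liver 9 were called higher against nonDEN L-WD (2.36% of all genes) and 8 against DEN L-CD (1.52%). On the western diet without DEN, 5 were called higher (3.24% of all genes) and 1 lower (320 of 15625 genes). Which cells held the Spp1 and Fabp5 transcripts, and the part of recruited or lipid-associated macrophages in the marker values, was not tested.

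**Figure D4:**
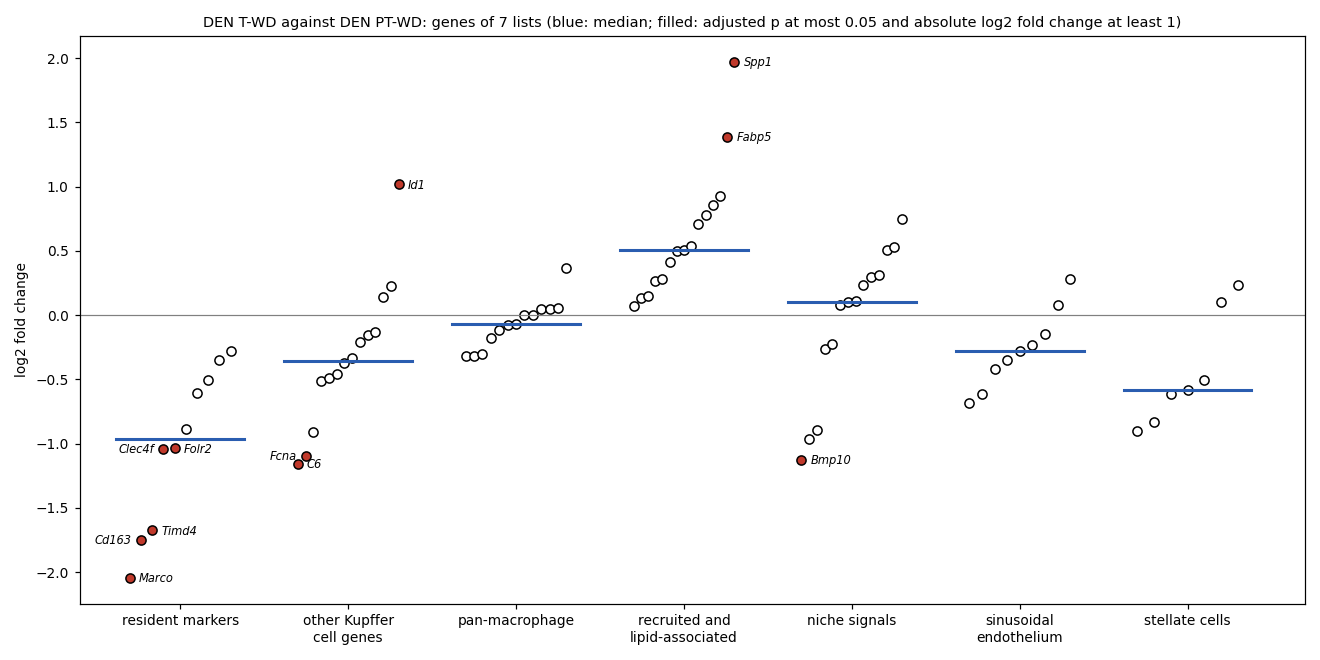
Log2 fold change (y axis) in DEN T-WD against DEN PT-WD for the genes of 7 lists (x axis, genes ordered by value within a list); blue lines are medians and filled, named points have an adjusted p of at most 0.05 and a log2 fold change of 1 or more in size. The median is -0.96 for the resident markers, -0.07 for pan-macrophage genes and 0.51 for recruited and lipid-associated markers.

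Signals that support Kupffer cells were taken as a list of 14. Of all genes tested, 3.09% were called lower in tumors against peritumoral liver. Bmp10, a ligand made by stellate cells that acts on Kupffer and endothelial cells, was the 1 gene of the list called there and fell by 1.13 (adjusted p = 4.87e-05, edgeR), beside a list median of 0.11. Its relative Gdf2 was at -0.96 and the chemokine gene Cxcl12 at -0.89, while the Notch ligand Dll4 was at 0.75 and the adhesion gene Icam1 at 0.51, each with an adjusted p of at most 0.05. Of the markers of neighbouring cells, 5 of 7 stellate cell genes and 5 of 9 sinusoidal endothelium genes were lower at an adjusted p of at most 0.05, as were 18.1% of all genes, with list medians of -0.58 and -0.28. The endothelial gene Pecam1 was higher, at 0.28 (adjusted p = 0.00321, edgeR), and log2 fold changes of both lists were under 1 in size. Of 8 hepatocyte genes, 4 were lower (18.1% of all genes) and 2 higher (19.5%) at an adjusted p of at most 0.05, with a median of -0.41. Cyp2e1, a drug metabolizing enzyme, fell by 1.67 (adjusted p = 1.8e-07, edgeR), and Apoa1, an apolipoprotein, rose by 1.04 (adjusted p = 0.00169). Their summed TPM, most of it from Alb, was 41100 to 68500 in peritumoral liver and 106000 to 126000 in 5 of 6 tumors. The share of these cells in the marker differences was not tested.

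Of 7 ligands and partners of the markers, Hp and Il34 were the genes called in any comparison. Hp encodes haptoglobin, the plasma protein whose hemoglobin complex CD163 binds. It fell by 1.13 on the western diet (adjusted p = 0.00346, edgeR) and by 1.07 after DEN (adjusted p = 0.00527, edgeR), with the same control livers in both. Of all genes, 5.29% and 4.69% were called there. Summed TPM of the 7 genes was 3670, 6580 and 6670 in those controls, and 3090 to 3560 in nonDEN L-WD. The lowest control thus lay near the nonDEN L-WD livers. For Hp the interaction of DEN with diet, which uses peritumoral liver, was called at 1.42 ± 0.34 (SE, adjusted p = 0.0117, edgeR), as were 2.75% of all genes. Il34, a ligand of the Csf1r receptor, was at 0.64 ± 0.16 (SE) in tumors against peritumoral liver. It rose by 1.21 against nonDEN L-WD (adjusted p = 4.98e-05, edgeR), where 10.4% of all genes were called higher. Csf1, the other ligand, was at -0.08 in tumors against peritumoral liver, and Csf2 had too few counts to be tested. As platelets also carry CLEC-2, 6 platelet genes were set beside Clec1b. Their summed TPM was 3.35 to 5.23 in nonDEN L-WD, 5.09 to 9.49 in peritumoral liver and 6.87 to 17.6 in tumors. The 3 with enough counts to be tested did not share a direction in tumors against peritumoral liver, where Clec1b was lower: Pf4 was at 0.79 (adjusted p = 0.0176, edgeR), Itga2b at -0.39 (adjusted p = 0.0326) and Ppbp at 0.24 (adjusted p = 0.643).

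Across the 25 libraries, the 45 pairs of markers had a median Pearson's r of log2 CPM of 0.58, and 0.59 after each group mean was subtracted. Clec4f, Vsig4 and Folr2 were correlated at 0.90 to 0.91, Cd5l, Adgre1 and Csf1r at 0.88 to 0.91, and Timd4 and Cd163 at 0.82. After group means were subtracted these pairs had 0.81 to 0.90, 0.83 to 0.86 and 0.59, while Clec4f with Csf1r went from 0.50 to 0.83 and Cd5l with Folr2 from 0.73 to 0.88. Pairs of Timd4 or Cd163 with Clec4f, Vsig4 or Folr2 went the other way, Clec4f with Timd4 from 0.73 to 0.34 and Clec4f with Cd163 from 0.51 to 0.09. Cd163 stood apart, with a median r of 0.26 with the other 9 markers and 0.09 after group means were subtracted, whereas Csf1r had 0.71 and 0.83. These values share libraries, depth and tissue composition and are a description.

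**Figure D5:**
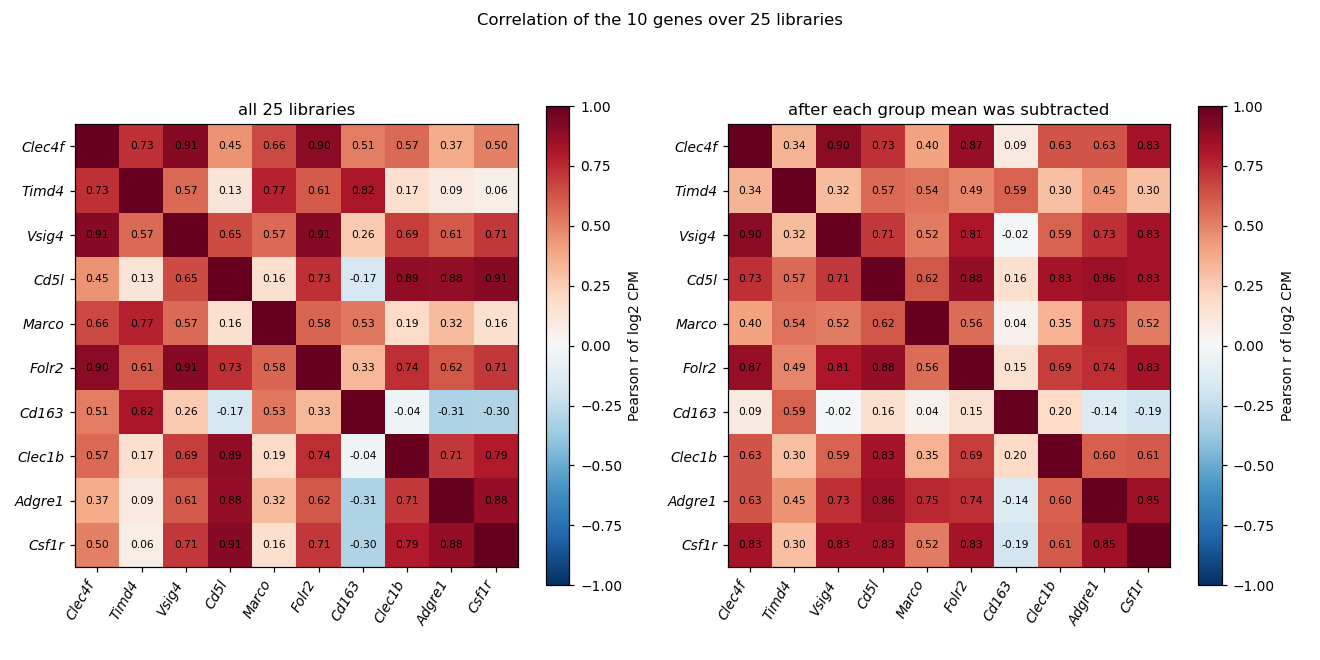
Pearson's r of log2 CPM (colour and number) for each pair of the 10 markers over 25 libraries, before (left) and after (right) each group mean was subtracted. The row of Cd163 runs from -0.31 to 0.82, the highest with Timd4, on the left and from -0.19 to 0.59 on the right.

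For each marker, the genes outside the set with the highest r over the 25 libraries were noted, up to 3. Cd5l was nearest to Kcna2 (0.97), Sdc3 (0.95) and Cd300ld (0.94), Csf1r to Sdc3 (0.95), Siglec1 (0.94) and Nfam1 (0.93), and Adgre1 to Clec4a1 (0.92) and Adgre4 (0.91), most of which are known as macrophage or myeloid genes. Folr2 was nearest to Cfp (0.86), Ctla2b (0.82) and Mertk (0.80), and Clec1b to Il18bp (0.91), Itgal (0.86) and Kcna2 (0.85). Cd163 was nearest to Cyp2c50 (0.93), Cyp2c54 (0.90) and Cyp2c29 (0.90), and Timd4 to Ugt3a1 (0.92), Ugt3a2 (0.90) and Cyp2c50 (0.90). These encode drug and steroid metabolizing enzymes of hepatocytes. After group means were subtracted, the r of Cd163 with Cyp2c50 was 0.91 and that of Timd4 with Ugt3a1 0.76. Without DEN T-WD replicate 5, which was low in hepatocyte transcripts, they were 0.89 and 0.89 over 24 libraries with group means left in. Clec4f was nearest to Pcolce2 (0.88), Fam167a (0.86) and Igfals (0.86), Vsig4 to Selenow (0.89), A430018G15Rik (0.81) and Dpys (0.81), and Marco to Raver2, Znrf2 and Ccdc22 (0.78 each).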

How the data were processed

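RNA-seq of 25 libraries was analysed, grouped by the labels. Per the labels and the paper, the authors checked reads with FastQC, aligned them to GRCm38 with STAR and ran RSEM; versions of STAR and RSEM, annotation release and use of strand are not given in the sources used here. The deposited expected counts are RSEM's estimated reads per gene, not normalized. The deposited TPM gives each gene's share of a library after RSEM's correction for length. The authors' FPKM was not used.

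Expected counts were rounded and fitted with edgeR 4.0.16 (R 4.3.3; glmQLFit and glmQLFTest, TMM, filterByExpr by group, minimum count 10) in 1 model over 5 groups, with Benjamini-Hochberg adjustment over 15625 genes. Calls needed an adjusted p of at most 0.05 and a log2 fold change of 1 or more in size. Log2 CPM used a prior count of 2. DESeq2 1.42.0 (Wald test), DESeq2 size factors, no filter on low counts, no minimum fold change, only the groups compared, a replicate block, each library left out and log2(TPM + 1) or log2(TPM + 0.1) were alternatives. Tables and figures were made in Python 3.11.15 with NumPy 2.4.6, pandas 2.3.3 and Matplotlib 3.10.9.

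Tested on simulated data with 200 genes changed by 2 on the log2 scale, the fit recovered 96% of them when nonDEN L-WD was compared with nonDEN L-CD (15363 genes) and 99% when DEN T-WD was compared with DEN PT-WD (15353 genes). The 200 genes were drawn from those with higher mean counts. Recovery of smaller changes, as most marker estimates are, was not tested. Replicates differed by more than sampling noise (smallest chi-square per gene 26.9), and as the labels do not say whether samples of a group are separate mice, p-values measure the spread between these samples.

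The members and all lists were chosen with earlier results of these data known. The text names all 10 members, up to 3 called genes per other list, or its most abundant gene, and the 3 most alike genes per member; other genes named were chosen after their values were seen. Symbols were paired with 48349 of 48795 gene IDs through GENCODE, and promoters came from RefSeq (GRCm38.p6), with 8 of 10 members matched. A gene of the pan-macrophage list, left out of its counts, medians and sums, and a gene alike to a member are not reported here.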

Additional observations from a re-analysis of the deposited data

Results flagged for a closer look

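In 6 of 40 sets of values (10 markers in the 4 groups of 4 to 8 libraries), the highest library lay far from the others of its group by Dixon's ratio of gap to range; chance alone gives about 1 in 20 such sets. Of these, 5 were DEN L-CD replicate 2: Cd5l at 114 TPM, where the next library had 51.7, Folr2 at 16.6 TPM (next 10.5), Clec1b at 17.6 TPM (next 12.6), Adgre1 at 23.7 TPM (next 7.38) and Csf1r at 20.0 TPM (next 13.7). The remaining one was Marco in nonDEN L-WD replicate 2, at 18.4 TPM where the next library had 6.35. The values come from the same 2 libraries and are not independent of each other.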

How the results depend on the processing

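Counts of called markers were recomputed under each alternative. With no minimum fold change, 2 rather than 0 markers passed in DEN PT-WD relative to nonDEN L-WD, and 2 rather than 0 relative to DEN L-CD. With each library left out in turn, counts ranged from 3 to 5 in tumors relative to DEN PT-WD and from 0 to 2 in DEN PT-WD relative to DEN L-CD, and stayed at 0, 0, 0, 0 and 3 in the other comparisons (nonDEN L-WD and DEN L-CD against nonDEN L-CD, DEN PT-WD against nonDEN L-WD, the interaction, and DEN T-WD against nonDEN L-WD). These fits tested 15512 to 16004 genes. Of them, 1114 to 1316 and 173 to 438 were called in the first 2 comparisons named. In the others 507 to 959, 430 to 842, 201 to 604, 232 to 600 and 2228 to 2541 were called, in the same order. Of 1100 recomputed log2 fold changes of markers, 14 moved by more than the spread between replicates and 0 of the called ones changed sign. Leaving out the 8 libraries rich in pancreas transcripts, and DEN T-WD replicate 5 from the correlations of Cd163 and Timd4, was chosen after seeing the data.

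Replicate numbers are shared between groups, but correlations of same-numbered samples ran from -0.23 to 0.389 and no comparison had every pair above 0.1, so that the numbers were not taken to pair the samples. Whether same-numbered tumor and peritumoral libraries come from 1 mouse is not given in the sources used here, and 3 of those 12 libraries correlated best with their own number (6 of 6 where DEN L-CD was set against control livers, and 2 to 4 of 6 or 8 in the others). With a replicate block, 3 rather than 5 markers were called in tumors relative to DEN PT-WD. Of all 15625 genes, 1133 were called there with the block, against 1235 without it. Clec4f (-0.97) and Folr2 (-0.98) no longer reached the minimum fold, and no other marker count changed. Apart from the block and the fits without 1 library, the alternatives for that comparison gave 4 to 7 calls. Those that kept the minimum fold called 888 to 1354 genes, of 14520 to 28172 tested. Depth limits Cd163 and Timd4 most, with as few as 23 and 35 expected counts in a tumor.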

Other observations

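Receptors with tasks like those of the markers did not share one direction in tumors. Of 8 other scavenger receptor genes, 0 were called in DEN T-WD against DEN PT-WD by edgeR's quasi-likelihood test, with a median log2 fold change of -0.21, 1 higher and 1 lower at an adjusted p of at most 0.05. Cd36, a fatty acid transporter and scavenger receptor, rose by 1.93 in nonDEN L-WD against nonDEN L-CD (adjusted p = 0.000982, edgeR) and by 1.28 in DEN L-CD against the same controls (adjusted p = 0.0152), while Scara5, a ferritin receptor, fell by 3.13 and 3.28 (adjusted p = 0.0122 and 0.0102). Of 8 tested genes for other receptors and bridges of apoptotic cells, 1 was called in tumors against peritumoral liver: Mfge8, a bridge to phosphatidylserine, rose by 1.79 (adjusted p = 2.11e-07), where Timd4, a receptor for the same lipid, was lower.

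Cd207, a C-type lectin listed with the other Kupffer cell genes, was the 1 gene of that list with a called interaction of DEN with diet, at 1.71 ± 0.40 (SE) on the log2 scale (adjusted p = 0.0113, edgeR). Of all genes, 2.75% had a called interaction, and it cannot be told apart from the peritumoral site of DEN PT-WD. The mean TPM of Cd207 was 5.23 ± 1.09 (SD, n = 3) in nonDEN L-CD, 2.99 ± 0.93 (n = 4) in nonDEN L-WD, 3.22 ± 0.92 (n = 4) in DEN L-CD and 6.67 ± 2.28 (n = 8) in DEN PT-WD.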
